A study of Mus musculus with 20 samples.

Results

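The acyl-CoA thioesterases examined here were Acot1, Acot2, Acot3, Acot4, Acot5, Acot6, Acot8 and Acot12. They were found by gene symbol in the RNA-seq tables of male and female mouse liver, and the tables were joined on the gene identifier. All 8 genes were listed among the 56884 genes of the male table, and 7 of the 8 were listed among the 18149 genes of the female table, which lacked Acot5. In each sex, RNA-seq was performed on the livers of 6 mice aged 11 to 14 weeks, 3 of them WT and 3 Midn-T. The WT mice carried the genotype label Midn XTR, in which a gene-trap cassette in intron 2 of Midn still lets the gene be expressed. The Midn-T mice carried the label Midn TR, the state reached once Cre has inverted the cassette. Cre was driven by the Albumin promoter, which the authors chose in order to inactivate the gene in hepatocytes only. The state of the allele in the other cells of the organ was not reported. The labels did not say whether the WT mice also carried Cre, and no mouse received any other treatment. Midn encodes midnolin, a nuclear protein that delivers transcription factors to the proteasome.

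Each table gave 1 mean per gene over the 6 mice of a sex, with WT and Midn-T pooled. The mean was a normalized read count, that is, a count divided by a factor for sequencing depth. No value for a single mouse or a single genotype was used, so every value below is the authors' mean, without a spread, and none of the differences between the sexes or between genes could be tested. Because the tables of the sexes were normalized separately, a gene's mean was expressed per 1000000 of the summed means of its table (CPM) before the sexes were set side by side. In these pooled means, the sex of the mice, the response to the gene trap within a sex and any batch that separated the sexes cannot be told apart. Fewer cells expressing a gene and less RNA per cell also cannot be told apart in whole liver.

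Acyl-CoA thioesterases hydrolyse the thioester bond of an acyl-CoA and release the free acid and coenzyme A. In this way they set the balance between activated and free fatty acids and return coenzyme A to the compartment in which they work. Acot1 to Acot6 encode closely related enzymes that differ in location and substrate. Acot1 is cytosolic and Acot2 mitochondrial, and both act on long-chain acyl-CoAs, whereas Acot3 to Acot6 are peroxisomal. Acot8 encodes an unrelated peroxisomal thioesterase of broad substrate range that also accepts bile acid CoA esters, and Acot12 encodes a cytosolic enzyme that hydrolyses acetyl-CoA. Several of these genes are known in liver as targets of PPARA, the nuclear receptor that is activated by fatty acids and fibrate drugs.

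The end of a coding sequence bears on whether an enzyme is peroxisomal, because many peroxisomal proteins end in a small residue, a basic residue and leucine. The last 60 coding bases of each gene, read from GRCm39 and ending with the stop codon, are shown for this reason. Capitals mark the last 3 codons before the stop, and coordinates are those of GRCm39.
Acot1 (chr12:84064094-84064153, plus strand): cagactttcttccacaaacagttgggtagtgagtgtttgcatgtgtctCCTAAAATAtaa
Acot2 (chr12:84039795-84039854, plus strand): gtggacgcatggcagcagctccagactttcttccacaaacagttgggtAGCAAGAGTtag
Acot3 (chr12:84105741-84105800, plus strand): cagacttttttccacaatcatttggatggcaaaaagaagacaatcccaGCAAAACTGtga
Acot4 (chr12:84090511-84090570, plus strand): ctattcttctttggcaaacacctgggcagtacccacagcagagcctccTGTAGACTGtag
Acot5 (chr12:84122624-84122683, plus strand): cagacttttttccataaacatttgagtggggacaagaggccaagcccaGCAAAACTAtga
Acot6 (chr12:84156254-84156313, plus strand): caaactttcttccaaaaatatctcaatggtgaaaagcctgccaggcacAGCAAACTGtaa
Acot8 (chr2:164634812-164634871, minus strand): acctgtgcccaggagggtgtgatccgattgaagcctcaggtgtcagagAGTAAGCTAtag
Acot12 (chr13:91932840-91932899, plus strand): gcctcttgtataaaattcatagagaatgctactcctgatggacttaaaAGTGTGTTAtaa
In 5 of the 8 genes, Acot3, Acot4, Acot5, Acot6 and Acot8, these codons encode such an end, with serine, alanine or cysteine as the small residue. The ends of Acot1, Acot2 and Acot12 did not have it.

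The 6 genes Acot1 to Acot6 formed a cluster on chromosome 12. It spanned 123.7 kb (GRCm39, chr12:84034428-84158127), and all 6 genes lay on the plus strand in the order Acot2, Acot1, Acot4, Acot3, Acot5 and Acot6. Gaps between neighbouring genes ran from 3542 bp between Acot4 and Acot3 to 24633 bp between Acot5 and Acot6. Acot3 (ENSMUSG00000021228) occupied positions 84098918 to 84107176, with 4 exons in its canonical transcript, and the other 5 genes of the cluster had 3 exons each. Acot2 (ENSMUSG00000021226) ended at position 84040647, and Acot1 (ENSMUSG00000072949) ran from 84056256 to 84065145. Acot4 (ENSMUSG00000052392) ran from 84085081 to 84095375, Acot5 (ENSMUSG00000042540) from 84116099 to 84122794 and Acot6 (ENSMUSG00000043487) from 84147428. Acot8 (ENSMUSG00000017307) lay apart on the minus strand of chromosome 2 at positions 164631348 to 164647353, with 6 exons. Acot12 (ENSMUSG00000021620) lay on the plus strand of chromosome 13 at positions 91889396 to 91935688, with 15 exons.

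The genes of the cluster had similar coding sequences. Over the 15 pairs, the share of identical aligned coding bases ran from 73.7% between Acot4 and Acot5 to 95.2% between Acot1 and Acot2, with a median of 75.3%. Acot3 was closest to Acot5 (85.4%), the gene that follows it. It shared 84.5% with Acot2 and 83.9% with Acot1 but only 74.2% with Acot4, the gene that precedes it. The neighbours of Acot3 on either side were thus the most and the least like it in the cluster.

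**Figure D1:**
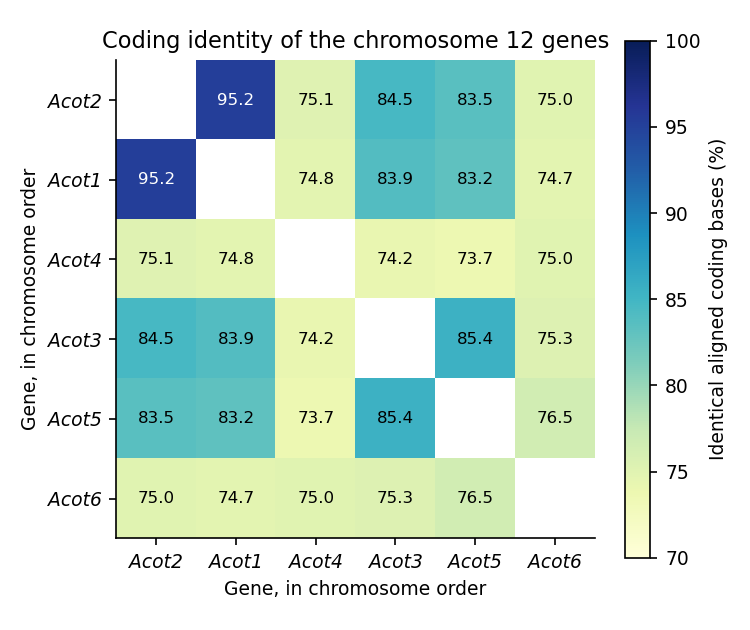
Percentage of identical aligned coding bases for each pair of the 6 chromosome 12 genes, in chromosome order on both axes, with the value written in each square and shown by colour. Acot1 and Acot2 share 95.2%, Acot3 and Acot5 85.4%, and every pair that includes Acot4 lies between 73.7% and 75.1%.

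Such likeness bears on the counts, because only reads with a single place in the genome were assigned to genes. Of all 150-base words of the canonical transcript, 12.3% of those of Acot1 and 9.27% of those of Acot2 occurred again elsewhere in the genome or in the transcript of another gene. The share was 3.54% for Acot3, 3.36% for Acot5 and 0.308% for Acot6, and no such word of Acot4, Acot8 or Acot12 was found elsewhere. With words of 50 bases the share rose to 39.1% for Acot1, 26.4% for Acot2 and 22.8% for Acot5. Acot1 and Acot2 shared 527 such words with each other. By this measure Acot1 and Acot2 had the most sequence from which reads could be lost.

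Overlapping genes were a further limit, on the same strand for Acot3 and Acot4. Gm49366, a coding gene that runs through Acot4 and Acot3 on the same strand, shared 20.3% of the exonic bases of Acot3 and 6.18% of those of Acot4. It was listed at 0 in males and was not listed in females, and the mode by which reads in shared bases were assigned was not given in the sources used here. On the opposite strand, Snx21 shared 44.9% of the exonic bases of Acot8, and noncoding genes shared up to 4.64% of those of Acot12 and 3.41% of those of Acot6, but reads had been assigned with respect to strand. These overlapping genes, and the other neighbours named below, were chosen after their values had been seen.

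Acot12 had the highest level of the family per exonic base in both sexes. To compare genes with each other, each mean was divided by the gene's merged exon length and expressed per 1000000 of the sum over all genes, and this is the length-scaled level given here. The level of Acot12 was 116 in males and 132 in females, which made up 68.3% of the summed level of the family in males and 42.6% in females. Its mean normalized count was 4627 in males and 5353 in females. The most abundant transcript by this measure was that of the enzyme for acetyl-CoA, and its share of the family sum was lower in females. The choice of length matters here, because most of the exonic bases of Acot4 are noncoding. Divided by coding length instead, the level of Acot4 was 66.4 in males, below that of Acot12 at 128, and 205 in females, above that of Acot12 at 149.

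Acot4, whose peroxisomal product acts on succinyl-CoA, came second in both sexes. Its length-scaled level was 31.6 in males and 95.4 in females, from mean normalized counts of 1811 and 5561. Acot12 exceeded Acot4 by 3.66-fold in males and by 1.38-fold in females. Without replicate values, it cannot be said whether the gap of 1.38-fold in females is larger than the spread between mice.

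The third place differed between the sexes. In males it was held by Acot1, which encodes the cytosolic long-chain enzyme, at a length-scaled level of 8.96. In females it was held by Acot3, which encodes a peroxisomal long-chain enzyme, at 45.5, while Acot1 followed at 17.5. In males Acot3 had a level of 3.26 and was sixth of the 7 genes detected. Divided by coding length, its male level was 3.60, above that of Acot2 at 3.04.

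Acot2 and Acot8 were neighbours in the male order, with length-scaled levels of 4.78 and 4.60, a gap of only 1.04-fold that cannot be told from equality without replicate values. In females they were further apart, at 13.1 for Acot2 and 4.45 for Acot8. By coding length, Acot8 stood above Acot2 in both sexes, at 14.5 against 3.04 in males and 14.3 against 8.49 in females, and in males it also stood above Acot1 (10.1). Acot6, which encodes a peroxisomal enzyme for branched-chain acyl-CoAs, was the lowest of the genes detected, at 0.545 in males and 1.62 in females. Acot5, which encodes a medium-chain enzyme of peroxisomes, was listed at 0 in males and, not being in the female table, has no value there.

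**Figure D2:**
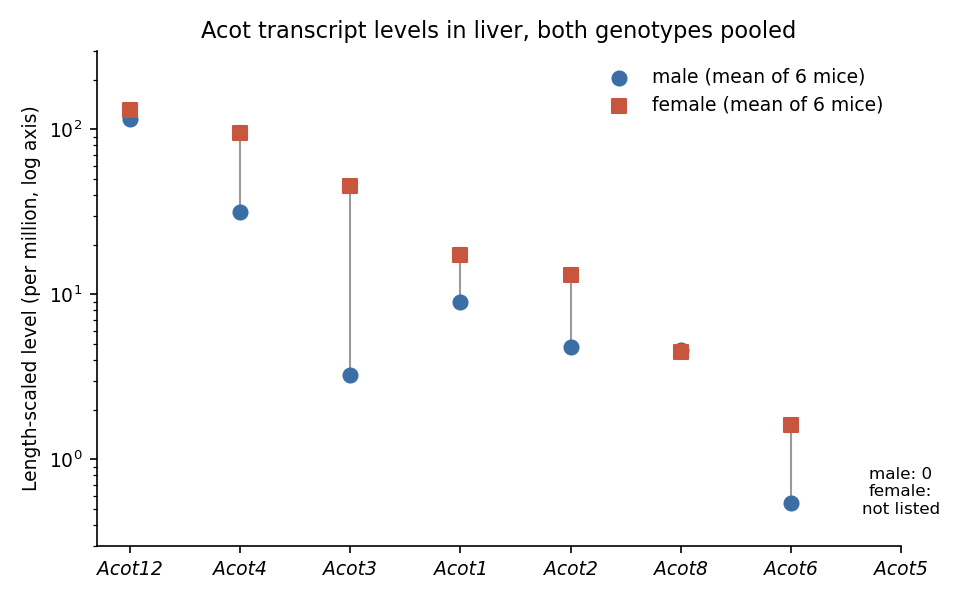
Length-scaled level (per 1000000, log axis) of each Acot gene in male liver (blue circles) and female liver (red squares), each point being the authors' mean over 6 mice of both genotypes, with grey lines joining the sexes. Acot12 and Acot8 nearly coincide between the sexes, whereas Acot3 runs from 3.26 to 45.5. Acot5 was listed at 0 in males and was not in the female table.

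As a share of the total of its table, the female mean of Acot3 was 14.0 times the male mean. Its mean normalized count was 101 in males and 1430 in females, or 3.33 and 46.5 CPM, a difference of 3.80 on the log2 scale. The 17178 genes compared were listed in both tables, detected in males, with a mean of at least 10 in either sex. Of these, 37 (0.215%) had a higher female over male ratio than Acot3. By its mean it ranked 10971 among all genes in males and 3266 in females.

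For Acot3 the pooled means by themselves bounded what the mice of each sex could have had. Counts cannot be negative, so the mean of either male genotype group can have been at most 2 times the pooled male mean, and that of a single male mouse at most 6 times. These limits came to 6.66 and 19.98 CPM for Acot3. The female mean of 46.5 CPM exceeded both. At least 1 female genotype group therefore had a higher mean of Acot3 than either male genotype group, and at least 1 female mouse was higher than each of the 6 males.

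A further 3 genes of the cluster had female means more than 2 times the male means. Acot4 differed by 3.02-fold, from 59.8 to 181 CPM. Acot6 differed by 2.98-fold, from 0.896 to 2.67 CPM, on mean normalized counts of only 27.1 and 82.0. Acot2, which encodes the mitochondrial enzyme, differed by 2.74-fold, from 2.94 to 8.06 CPM. For these genes the female mean was 1.51, 1.49 and 1.37 times the largest value that a male genotype group can have had, so that again at least 1 female group lay above both male groups. The same bound for a single male mouse was not passed by any of them.

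Acot1 stood just below this fold. Its mean normalized count was 273 in males and 541 in females, or 9.02 and 17.6 CPM, a ratio of 1.95. The female mean was 0.975 times the largest possible mean of a male genotype group, so the pooled means do not place any female group above both male groups. With the 10 largest genes left out of the totals the ratio of Acot1 was 2.02.

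The genes outside the cluster lay close to equality. Acot12 had a female over male ratio of 1.14, from 153 to 174 CPM. Acot8 had a ratio of 0.969, from 9.91 to 9.60 CPM, and its direction depended on the scaling, since the ratio was 1.00 when the 10 largest genes were left out of the totals. Of all genes compared, 33.2% had a higher ratio than Acot12 and 61.8% a higher ratio than Acot8.

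In all, 4 of the 7 Acot genes compared, Acot2, Acot3, Acot4 and Acot6, had at least a 2-fold higher share of the total in females, against 3.51% of the 17178 genes compared (603 genes). None of the 7 was at least 2-fold higher in males, against 1.53% of the genes compared (262 genes). Both shares leave out genes not detected in males and genes missing from the shorter female table. Of the latter, 106 had a male mean of at least 10. The median ratio of the 7 genes was 2.74, beside a median of 1.03 over all genes, of which 5% lay below 0.691 and 5% above 1.81. At a 1.5-fold limit the count was 5 of 7, with Acot1, against 10.3% of all genes, and at a 4-fold limit it was 1 of 7, Acot3, against 0.768%. The 5 genes of the cluster are near-identical in part and lie side by side, so they need not be independent of each other.

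**Figure D3:**
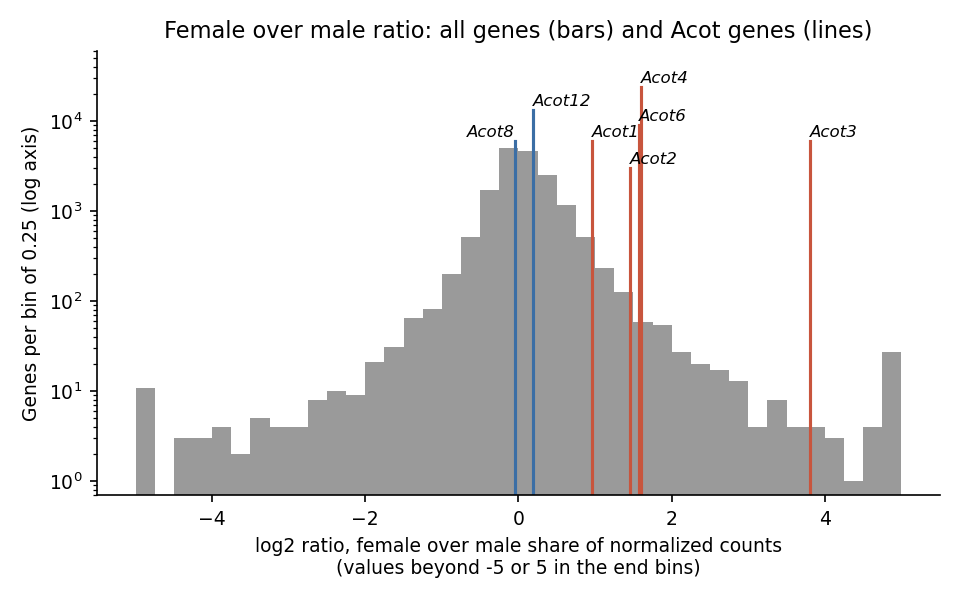
Distribution of the log2 ratio of female over male share of normalized counts for 17178 genes (grey bars, number of genes per bin of 0.25 on a log axis, with values beyond -5 or 5 in the end bins). Lines mark the Acot genes of the chromosome 12 cluster (red) and the other members (blue), and their heights only keep the names apart. Acot8 and Acot12 stand in the centre, Acot1, Acot2, Acot4 and Acot6 between 0.96 and 1.60, and Acot3 at 3.80.

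Summed over the cluster, the length-scaled level was 49.1 in males and 173 in females, a ratio of 3.52. Its makeup differed as well. Acot4 made up 64.3% of the sum in males and 55.1% in females, while Acot3 went from 6.64% to 26.3%. The shares of Acot1 (18.2% and 10.1%), Acot2 (9.73% and 7.56%) and Acot6 (1.11% and 0.936%) were lower in females, although the level of each gene was higher there. By merged exon length, the higher cluster sum of females thus came with a larger share of transcripts of Acot3. The size of all these shares depends on the length used. Divided by coding length, the level of Acot4 was 66.4 in males and 205 in females, and that of Acot3 was 3.60 and 51.4.

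The coding genes that flank the cluster had ratios nearer to 1. Within 150 kb on either side lie 6 other coding genes, of which 5 had a mean of at least 10 in both tables. Their ratios ran from 0.792 for Pnma1 to 1.33 for Dnal1, with a median of 1.07, and none reached 2-fold. Dnal1, the nearest on the side of Acot6, encodes a light chain of axonemal dynein. Inside the cluster, the long noncoding gene 4732463B04Rik runs against Acot4 and the start of Acot3 on the opposite strand. Its mean normalized count was 3.90 in males and 29.7 in females, a ratio of 7.50. It shared 15.1% of the exonic bases of Acot4 and 7.83% of those of Acot3, and the part of its few reads in the Acot values was not tested.

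**Figure D4:**
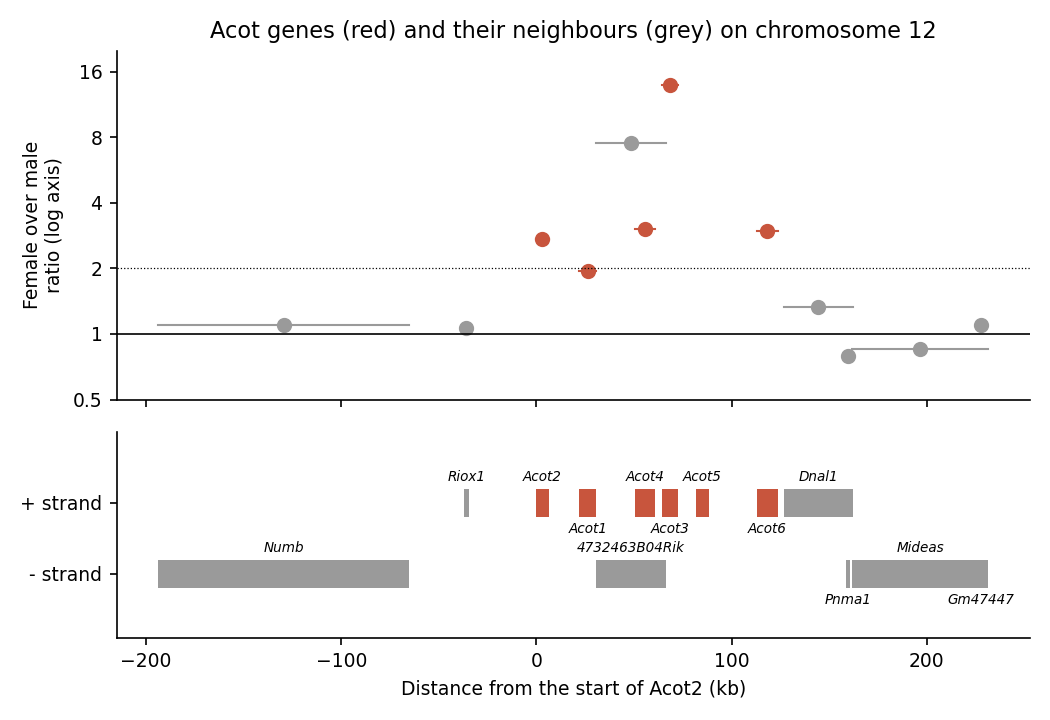
Top, ratio of the female over the male share of normalized counts (log axis) against distance from the start of Acot2 in kb. Points are Acot genes (red) and other coding or long noncoding genes within 150 kb (grey) that were counted in both sexes. Horizontal bars give the extent of each gene. Bottom, gene positions by strand. Coding genes on both sides of the cluster lie between 0.792 and 1.33, and the grey point above the 2-fold line (dotted) is the noncoding gene 4732463B04Rik.

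PPARA binds DNA together with the receptor RXR at paired copies of the letters AGGTCA that follow each other with 1 base between them. The promoters of the family, from 250 bases before to 50 bases after the start of the canonical transcript, were searched for this pair on both strands. With at most 2 mismatches over the 12 bases, 3.46% of 21770 coding promoters held a match (753 promoters), and 1 of the 8 Acot promoters did. With at most 1 mismatch, 0.455% of all promoters and the same Acot promoter held one. The promoter was that of Acot12, which held a match with 1 mismatch starting 55 bases before the transcript start and another with 2 mismatches 220 bases before it. With at most 3 mismatches, 23.5% of all promoters and 4 of the 8 (Acot2, Acot3, Acot5 and Acot12) held a match. The 250 bases before the start are shown for Acot3, the gene with the largest ratio between the sexes, and for Acot12, the gene with the highest level, with the letters of the matches at up to 2 mismatches in capitals.
Acot3 (chr12:84098668-84098917, plus strand): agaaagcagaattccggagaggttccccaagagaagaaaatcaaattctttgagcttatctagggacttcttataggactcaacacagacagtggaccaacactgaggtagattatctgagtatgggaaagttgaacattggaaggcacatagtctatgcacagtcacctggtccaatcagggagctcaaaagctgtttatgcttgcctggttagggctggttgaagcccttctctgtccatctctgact
Acot12 (chr13:91889335-91889584, plus strand): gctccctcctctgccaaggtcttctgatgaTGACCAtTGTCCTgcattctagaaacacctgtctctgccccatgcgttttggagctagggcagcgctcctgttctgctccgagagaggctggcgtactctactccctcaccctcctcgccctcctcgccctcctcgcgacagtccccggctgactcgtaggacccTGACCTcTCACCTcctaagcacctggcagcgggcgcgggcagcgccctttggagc
No match with up to 2 mismatches was present in this window of Acot3. The promoter of Acot12 was also richer in G and C, at 65.0% of its 300 bases, against 45.7% for Acot3 and 41.0% for Acot4. These matches are letters only, and binding was not measured here.

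Other genes that handle acyl-CoA were compared in the same way, in lists drawn up with earlier results of these data known. Among other thioesterases and the related acyltransferases, 8 of 10 genes could be compared, and 1 was at least 2-fold higher in females and none in males, with a median ratio of 1.22. That gene was Acnat2, with means of 131 in males and 1608 in females, a ratio of 12.1. Acnat1, its homologue, which encodes a peroxisomal enzyme that joins fatty acids to taurine, had a ratio of 1.65. Baat, which conjugates bile acids and had the highest level of the list, had a ratio of 0.969, and Acot13, which encodes a mitochondria-associated thioesterase, had 1.19. The other 4 genes compared lay between 0.831 and 1.43.

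The acyl-CoA synthetases make the substrates of thioesterases. Of 13 acyl-CoA synthetases compared, none was 2-fold different in either direction. Their ratios ran from 0.798 to 1.80, with a median of 1.01. The genes of highest level were Slc27a5 (1.11), which encodes a bile acid CoA synthetase, Slc27a2 (0.892), which encodes a very long-chain synthetase, and the medium-chain synthetase gene Acsm1 (1.01).

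Of 19 genes of peroxisomal fatty acid oxidation, 2 were at least 2-fold higher in females and 1 in males, and the median ratio was 0.945. Abcd2, which encodes a transporter of very long-chain acyl-CoAs into peroxisomes, had means of 749 in males and 3233 in females, a ratio of 4.25. Hacl1, which encodes a lyase of alpha-oxidation, had 320 and 1094, a ratio of 3.37. Scp2, which encodes the sterol carrier protein and its thiolase form, had 77045 and 31530, a ratio of 0.403. The phytanoyl-CoA hydroxylase gene Phyh had a ratio of 0.680. The other genes of the list were all within 2-fold.

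Of 17 genes of mitochondrial fatty acid oxidation, none was 2-fold different between the sexes. The ratios ran from 0.821 to 1.24, with a median of 1.05. Cpt1a, which encodes the gatekeeper of mitochondrial import, had the lowest ratio, 0.821. Acaa2 (0.935) and Acadvl (0.944) had the highest levels of the list.

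Of 17 genes of PPARA and its known targets, 3 were at least 2-fold higher in females and 2 in males, with a median ratio of 1.20. Cyp4a14 (9.45) and Cyp4a10 (4.14), which encode fatty acid omega-hydroxylases, and Vnn1 (2.62), which encodes pantetheinase, were higher in females. The homologous genes Cyp4a12a and Cyp4a12b, known as male-biased, had means of 7120 and 2891 in males against 36.3 and 10.8 in females. Ppara, given because the list is built on it, had a ratio of 0.975, and Fabp1 (0.983), the target of highest level, was also near 1. Ratios as high as those of Acot2, Acot4 and Acot6 were thus found for some PPARA targets and not for others.

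Of 9 genes of coenzyme A supply and removal compared, none was 2-fold higher in females and 1 was in males, with a median ratio of 1.02. The latter was Nudt7, which encodes a peroxisomal hydrolase of coenzyme A and its esters, with means of 17998 in males and 7209 in females, a ratio of 0.394. Pank1, which encodes the first enzyme of coenzyme A synthesis, had a ratio of 1.25 and Coasy 0.845.

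**Figure D5:**
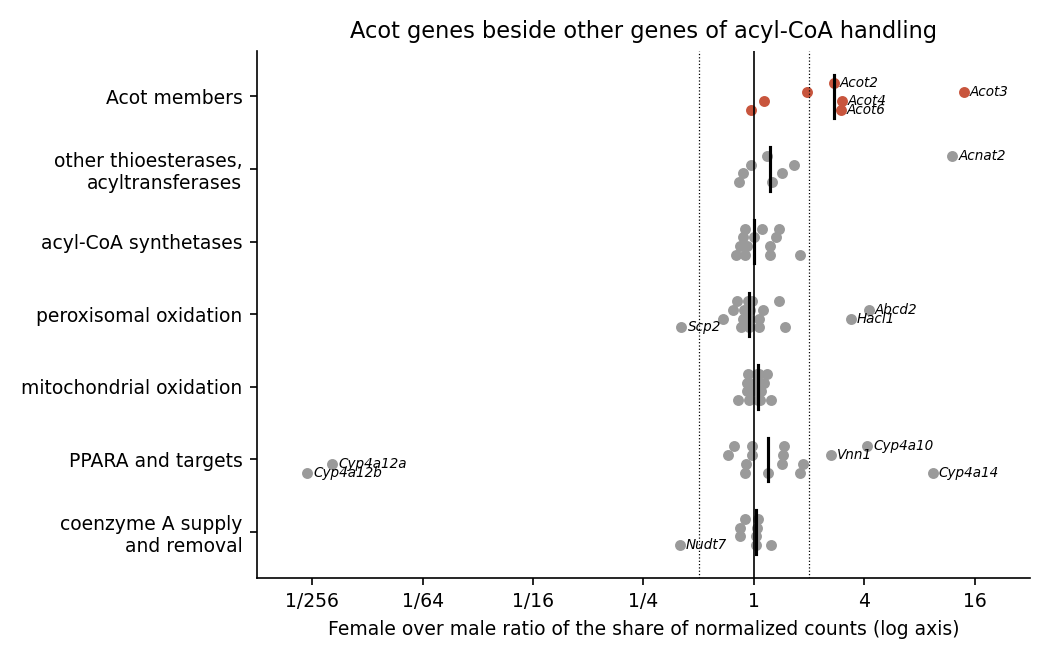
Ratio of the female over the male share of normalized counts (log axis) for the Acot genes (red) and for genes of 6 other lists (grey), 1 point per gene, with a black bar at each list's median, dotted lines at 2-fold either way and names on genes at or past 2-fold. The median is 2.74 for the Acot genes and between 0.945 and 1.22 for the other lists.

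The samples bore the marks of liver and of their labelled sex. In the hepatocyte list, led by Alb, Apoa1 and Ttr, ratios ran from 0.620 to 1.33. Kupffer cell genes (Cd5l, Clec4f and Vsig4 highest) ran from 0.937 to 1.27, sinusoidal endothelial genes (Stab2, Kdr and Clec4g) from 0.731 to 1.19, stellate cell genes (Colec11, Dcn and Reln) from 1.20 to 1.40, cholangiocyte genes (Spp1, Sox9 and Epcam) from 0.841 to 1.90 and lymphocyte genes (Cd79a, Nkg7 and Cd3e) from 0.933 to 1.16. No marker of these 6 lists of 5 genes reached 2-fold, and their summed length-scaled levels went from 68220 to 77988, 358 to 374, 160 to 180, 121 to 155, 44.7 to 50.2 and 6.85 to 7.20 from males to females. The part of cell composition in the Acot values was not tested. Xist had a mean normalized count of 14.0 in males and 72478 in females, and the 4 Y-linked genes of the check, among them Ddx3y and Uty, had male means of 964 to 3147 and were not listed in females. Of 13 genes known for sex bias in mouse liver, 11 could be compared. Moxd1 and A1bg, with male means of 161 and 0.773, were not listed in females. Among the 11 genes compared, Cyp2b9, Cyp3a41a, Cyp3a44, Sult2a1, Sult3a1 and Cux2 were at least 2-fold higher in females, and Cyp2d9, Elovl3, Mup20 and C6 in males. Midn had means of 1672 in males and 1357 in females, which pool WT and Midn-T mice and so check nothing about the genotype.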

How the data were processed

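Reads were aligned by the authors to GRCm39 with STAR 2.7, and uniquely mapped read pairs were assigned to Ensembl release 110 genes with HTSeq in reverse-stranded mode. The authors ran DESeq2 within each sex. The deposited signal column is the mean over 6 mice of 1 sex of counts divided by size factors. The other deposited columns hold fold changes, errors and p-values of the authors' own comparison of Midn-T with WT and were not used, and the deposited ATAC-seq peak lists, which give positions by direction of that comparison, were not used either. Depth per library is unknown, so no interval is given. The summed means were 3.03e+07 in males and 3.08e+07 in females.

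Genes, lists and comparisons were chosen with earlier results of these data known. Tables were joined by identifier, because 62 symbols differed. Levels used merged exon lengths from GENCODE M39. Genes were compared between the sexes if detected in males and listed in both tables with a mean of at least 10 in either. The genes named were all Acot genes, Midn, and in each list the 3 of highest length-scaled level and those at least 2-fold different, a few of which are not reported here. Transcript words and promoter matches came from GRCm39, and these steps were tested on simulated data. Python 3.11.15, numpy 2.4.6, pandas 2.3.3, numba 0.67.0, biopython 1.88 and matplotlib 3.10.9 were used. Alternative lengths, scalings, folds, filters and word sizes are given in the closing section.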

Additional observations from a re-analysis of the deposited data

How the results depend on the processing

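With no value per mouse, no result carries an error or a test, and no paired analysis was possible because the deposited means carry no replicate numbers. Each other scaling multiplied the female over male ratios of all genes by a common factor, 1.01, 1.04 or 1.02. None of the 21 recomputed ratios could therefore move by 1.5-fold, and only a ratio close to 1 could change direction. Of the 21, 20 kept their direction. The exception was Acot8, which went from 0.969 to 1.00 when the 10 largest genes were left out of the totals, and under that scaling Acot1 passed 2-fold at 2.02. The share of genes at least as different as the limit and higher in females was 3.51%. It went to 10.3% at 1.5-fold, 0.768% at 4-fold and 1.97% at a minimum mean of 100. Acot6, with means of 27.1 and 82.0, did not reach that minimum. The share higher in males went from 1.53% to 4.23% at 1.5-fold and 0.367% at 4-fold. The number of Acot promoters with a match went from 1 to 4 when 3 mismatches were allowed. Dividing by coding length in place of merged exon length moved the levels of 4 genes by over 1.5-fold: Acot2 to 3.04 in males and 8.49 in females, Acot4 to 66.4 and 205, Acot6 to 0.999 and 3.04, and Acot8 to 14.5 and 14.3. On that scale Acot4 exceeded Acot12 in females, Acot8 exceeded Acot2 in both sexes and Acot3 exceeded Acot2 in males. Counting only exonic bases shared with no other listed gene of the strand, an alternative chosen after seeing the data, gave Acot3 levels of 4.09 and 57.1. Words of 100 bases in place of 150 raised the share found elsewhere for 6 of the 8 genes, with Acot8 and Acot12 still at 0, and words of 50 bases raised it for all but Acot8 (Acot12 to 1.41%).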
